A study of Homo sapiens with 18 samples.

Results

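The 10 genes described here, SLC7A11, GCLC, GCLM, GSS, GSR, GLRX, GSTP1, GSTM3, ABCC1 and ABCC4, supply, make, recycle, use or export glutathione. They were taken by gene symbol from the 56269 genes of the deposited table, and all 10 were found and passed the filter on low values, a mean normalised read count of at least 10, which 13686 genes passed. RNA-Seq was performed on IMR90 cells, a line of human fetal lung fibroblasts, in 6 groups of 3 replicates. The pre-incubation lasted 6 h and was with PBS, with 20 μg/ml cNSF-HA or with 20 μg/ml fNSF-HA. NSF-HA is the hyaluronan (HA) secreted by naked mole-rat skin fibroblasts, cNSF-HA is the control preparation and fNSF-HA is the same material cut into shorter chains with hyaluronidase. The 3 groups without tBHP were collected at the end of the pre-incubation, and the other 3 groups had the HA removed, received 200 μM tBHP (tert-butyl hydroperoxide, an organic peroxide) for 1 h and were collected 6 h after its start. The effect of tBHP and that of the later collection cannot be told apart, because no group was collected at the later time without tBHP. All cells were of 1 line, and the study's methods call its replicates biological, without saying for these libraries how the cultures were kept apart.

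Glutathione is a tripeptide of glutamate, cysteine and glycine and the most abundant thiol of most cells. SLC7A11 (xCT) imports cystine in exchange for glutamate, glutamate-cysteine ligase (catalytic subunit GCLC, modifier subunit GCLM) makes the first and rate-limiting bond, and GSS adds glycine. Peroxidases oxidise glutathione to its disulphide, which GSR reduces back with NADPH, GLRX uses glutathione to reduce protein disulphides, GSTP1 and GSTM3 join it to electrophiles, and ABCC1 and ABCC4 are efflux pumps that carry glutathione conjugates or glutathione itself among other organic anions. Several of these genes are textbook targets of NRF2, which binds the antioxidant response element in promoters, and SLC7A11 is also induced by ATF4.

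RefSeq promoter sequences of 300 bases (250 before to 50 after the start that RefSeq gives, GRCh38.p14) were at hand for 6 of the 10 genes. Both strands were searched for the core of the antioxidant response element, TGACNNNGC, and 3 of the 6 promoters held it, against 13.35% of 35116 promoters of the same length. The 3 promoters with a match are shown, 5′ to 3′ on the strand of the gene, with the match in capitals. They are the promoters of GCLM (chr1:93909381-93909680, minus strand), of GSTP1 (chr11:67583562-67583861, plus strand) and of ABCC4 (chr13:95301402-95301701, minus strand), and after tBHP 2 of these genes were higher and ABCC4 was lower, as described with their values.
GCLM: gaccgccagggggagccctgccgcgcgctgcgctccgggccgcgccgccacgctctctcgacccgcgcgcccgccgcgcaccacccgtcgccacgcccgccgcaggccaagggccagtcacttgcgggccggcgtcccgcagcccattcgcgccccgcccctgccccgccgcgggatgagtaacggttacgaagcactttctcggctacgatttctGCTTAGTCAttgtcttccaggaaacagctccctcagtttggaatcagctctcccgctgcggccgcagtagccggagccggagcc
GSTP1: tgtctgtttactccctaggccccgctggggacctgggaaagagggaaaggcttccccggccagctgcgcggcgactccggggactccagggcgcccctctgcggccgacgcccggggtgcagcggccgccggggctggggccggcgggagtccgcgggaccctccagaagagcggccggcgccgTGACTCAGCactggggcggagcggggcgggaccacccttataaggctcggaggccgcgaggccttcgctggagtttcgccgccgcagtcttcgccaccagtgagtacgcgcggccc
ABCC4: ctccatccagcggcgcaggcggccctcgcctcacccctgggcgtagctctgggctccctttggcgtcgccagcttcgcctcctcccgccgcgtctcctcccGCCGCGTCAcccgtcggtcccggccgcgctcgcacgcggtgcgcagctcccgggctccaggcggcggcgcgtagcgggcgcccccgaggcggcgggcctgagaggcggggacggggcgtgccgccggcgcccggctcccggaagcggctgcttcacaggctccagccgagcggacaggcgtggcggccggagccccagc
The RefSeq start lay at the GENCODE start of GSTM3 and inside the GENCODE gene, whose coordinates are given below, by 26 bases for GCLM, 24 for ABCC4, 217 for GSTP1, 279 for GLRX and 71869 for GCLC. Counted from the RefSeq start, the match began 34 bases before the start of GCLM and 149 bases before that of ABCC4, on the opposite strand in both, and 66 bases before that of GSTP1, on the strand of the gene. The match in GSTP1 overlapped TGANTCA, a motif that 7.709% of the promoters held. No match lay in the windows of GCLC, GLRX and GSTM3, and the entries of GSS, GSR, SLC7A11 and ABCC1 were missing. A match is a description of these letters and was not tested for binding.

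The libraries held from 20261103 to 26287660 reads counted on genes, and the deposited values are read counts divided by the size factor of each library, given below as normalised read counts. All 10 fibroblast markers were detected in every library, with a summed level of 632864 to 657598 without tBHP and 479795 to 778057 after it. The 6 epithelial markers summed to at most 14.5 and the 5 leukocyte markers to at most 13.7, and of the 4 endothelial markers CDH5 was at 0, PECAM1 was at most 1.14 and TEK carried the sum of 711.5 to 1459. On the log2 scale, replicates had a median SD of 0.0761 without tBHP and of 0.206 after it. After tBHP, fNSF-HA replicate 2 stood apart along transcript GC content: for the fifth of the genes with the lowest GC content (median 38.41%) it deviated from the mean of the 9 libraries by a median of 0.43, and for the fifth with the highest (median 61.32%) by −0.61. In the opposite direction, PBS replicate 1 deviated by −0.22 and 0.26 and cNSF-HA replicate 3 by −0.15 and 0.25, and the other 6 libraries by −0.073 to 0.13 and −0.13 to 0.14. The part of this spread in the results was not tested beyond the values without these libraries and with the trend removed, which are given beside some of the results only. In RNA from whole cultures, fewer cells of a kind and less RNA per cell cannot be told apart.

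All 10 are protein-coding genes in GENCODE release 29 (GRCh38), from which the gene coordinates below were taken. Per kb of the longest annotated transcript, GSTP1 had the highest level of the 10 genes in PBS cells without tBHP, with 3556 ± 80 normalised reads per kb (SD, n = 3). GSS followed with 415.1 ± 14 and GSR with 392.5 ± 8.06, and GCLM had 307.3 ± 22.6. ABCC1 had 232.9 ± 7.66, GLRX 215.8 ± 3.89, ABCC4 194.2 ± 0.35, GCLC 189.3 ± 5.1, SLC7A11 145.1 ± 12.4 and GSTM3 78.3 ± 3.9 normalised reads per kb. Of the neighbours in this order, ABCC4 and GCLC overlapped between libraries. After tBHP, PBS cells had 926.4 ± 129 normalised reads per kb of SLC7A11 and 995.3 ± 66.9 of GSR, and only GSTP1 of the 10 was above these 2. The order depends on the transcript taken: over all annotated exons, GSS had 203 and GCLC 83.47 normalised reads per kb in PBS cells.

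The first comparison asked how the glutathione genes responded to tBHP. In PBS cells 6 of the 10 genes were higher after tBHP (SLC7A11, GSR, GCLM, ABCC1, GSTP1 and GSTM3) and ABCC4 was lower, at an adjusted p-value under 0.05 from limma, while 24.2% of all genes tested were called higher and 26.9% lower. In cNSF-HA cells 7 were higher, the same 6 and GCLC, and ABCC4 was lower, beside 24% and 26.8% of all genes. In fNSF-HA cells the same 7 were higher and none was lower, beside 19.2% and 22.7% of all genes. The median log2 change of the 10 genes was 0.53 with PBS, 0.55 with cNSF-HA and 0.40 with fNSF-HA, beside 0.0043, −0.00053 and −0.034 over all genes tested. The 3 responses used different libraries. GSS and GLRX passed in none of them.

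**Figure D1:**
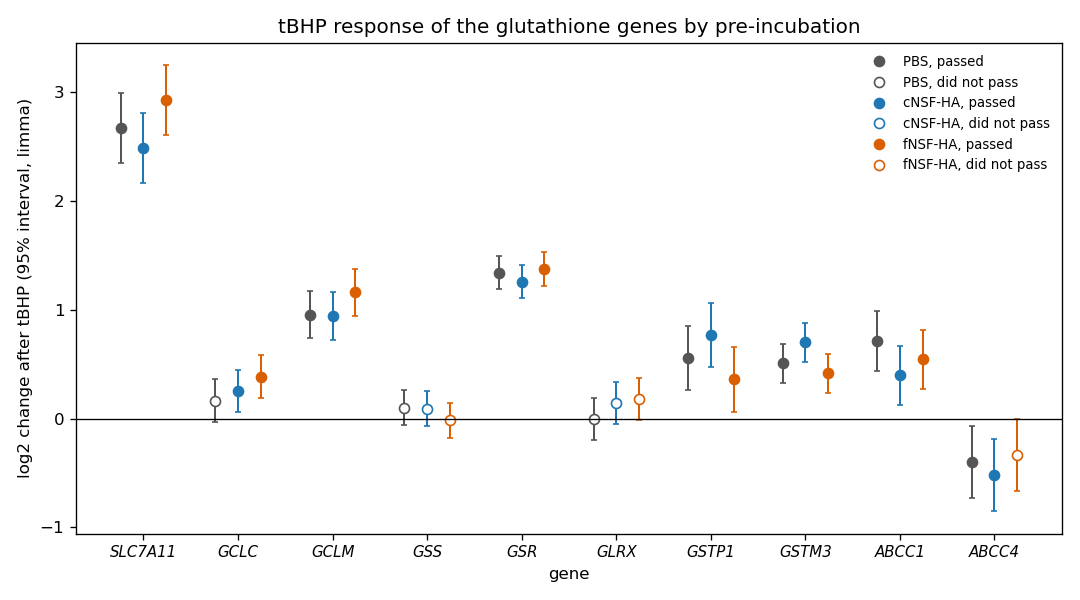
Log2 change after tBHP (vertical axis) of each of the 10 genes (horizontal axis) in PBS (grey), cNSF-HA (blue) and fNSF-HA (orange) cells. Points are limma estimates from 3 libraries a group, bars are 95% intervals, and filled points had an adjusted p-value under 0.05. SLC7A11 lies between 2.48 and 2.93, ABCC4 lies below 0, and GSS and GLRX are open in all 3.

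SLC7A11, the cystine importer (chr4:138164097-138242349), showed the largest response of the 10 genes. Without tBHP its normalised read counts were 1268, 1430.5 and 1501 with PBS, 1319.6, 1351 and 1419.5 with cNSF-HA and 1463, 1516 and 1426 with fNSF-HA. After tBHP they were 7894, 10309 and 8602 with PBS, 8234, 8388 and 6434 with cNSF-HA and 10587, 15306 and 8585 with fNSF-HA. Every library after tBHP lay far above every library without it, and fNSF-HA replicate 2 was the highest and cNSF-HA replicate 3 the lowest of those after tBHP. SLC7A11 rose 6.36-fold in PBS cells (log2 change 2.67, standard error 0.15, adjusted p = 2.29e-10), 5.60-fold with cNSF-HA (adjusted p = 6.58e-10) and 7.60-fold with fNSF-HA (adjusted p = 7.24e-11). With the dependence of each library on transcript GC content and length removed (the GC and length trend), the log2 changes were, in the same order, 3.23, 3.10 and 3.29. An antisense gene, SLC7A11-AS1, overlaps its exons, and since the TruSeq V2 kit does not mark the strand, the reads of the pair cannot be told apart.

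Of the genes of synthesis, the modifier subunit GCLM had log2 changes of 0.94 to 1.16 and the catalytic subunit GCLC of 0.17 to 0.39. The 9 libraries without tBHP had 1367 to 1573 normalised reads of GCLM (chr1:93885205-93909456), with a median of 1508. After tBHP GCLM had 2535, 3139 and 3038 normalised reads with PBS, 2662, 2842 and 2868 with cNSF-HA and 3379.5, 4137 and 2899.7 with fNSF-HA, so the libraries with and without tBHP did not overlap. Its log2 change was 0.96 in PBS cells (standard error 0.10, adjusted p = 7.15e-07), 0.94 with cNSF-HA (adjusted p = 9.29e-07) and 1.16 with fNSF-HA (adjusted p = 8.00e-08). With the GC and length trend removed, these changes were 1.44, 1.40 and 1.44.

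GCLC (chr6:53497341-53616970) had 702, 741 and 722 normalised reads in PBS cells without tBHP and 708, 861 and 869.8 after it. Replicate 1 after tBHP lay within the range without tBHP and the other 2 lay above it, and the log2 change of 0.17 (standard error 0.092, 95% interval −0.028 to 0.36, adjusted p = 0.143) did not pass. Without that replicate it was 0.26 and passed (adjusted p = 0.0261), as it did with edgeR (0.24) and with the GC and length trend removed (0.29). In cNSF-HA cells GCLC went from 620.2, 679 and 736 to 853, 793 and 781 and rose by 0.26 on the log2 scale (adjusted p = 0.0277), a call lost without cNSF-HA replicate 1 or 2 before tBHP, without cNSF-HA replicate 1 after tBHP (adjusted p = 0.132, 0.0612 and 0.0945) or with no filter on low values (0.0506). With the GC and length trend removed it was 0.39 (adjusted p = 1.68e-05). In fNSF-HA cells it went from 729.7, 739 and 729 to 930.4, 1072 and 880.4, with a log2 change of 0.39 (adjusted p = 0.00257), which was 0.44 with the trend removed. The reads of GCLC cannot be told apart from those of an overlapping antisense gene and an overlapping lincRNA.

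Within libraries, the normalised reads of GCLM divided by those of GCLC were 1.95 to 2.30 without tBHP and 3.12 to 3.86 after it. This ratio was chosen after the values were seen and is given as a description, and it separates the 9 libraries with tBHP from the 9 without.

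GSS, glutathione synthetase (chr20:34928433-34956027), had 1282, 1273 and 1205 normalised reads in PBS cells and 1316, 1348 and 1364 after tBHP. These libraries did not overlap, but the log2 change was 0.10 (95% interval −0.061 to 0.26, adjusted p = 0.289). It was 0.09 in cNSF-HA cells (95% interval −0.071 to 0.25) and −0.02 in fNSF-HA cells (−0.18 to 0.14), where the libraries with and without tBHP overlapped. With the GC and length trend removed all 3 estimates were below 0, from −0.11 to −0.080, and none passed.

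GSR, the reductase that returns the disulphide to glutathione (on chromosome 8), varied least of the 10 genes: the highest library was 1.07 times the lowest among the 9 without tBHP and 1.23 times among the 9 after it. Without tBHP the libraries had 1208 to 1288 normalised reads. After tBHP GSR had 2947, 3369.6 and 3215 normalised reads with PBS, 3036, 3070.1 and 2859 with cNSF-HA and 3369.9, 3529.5 and 2914 with fNSF-HA. Every library after tBHP lay above every library without it. GSR rose 2.53-fold in PBS cells (log2 change 1.34, standard error 0.073, adjusted p = 1.12e-10), 2.39-fold with cNSF-HA (adjusted p = 2.66e-10) and 2.59-fold with fNSF-HA (adjusted p = 8.12e-11).

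GLRX, glutaredoxin (chr5:95751319-95823005), had 734, 749 and 723 normalised reads in PBS cells and 656, 790.4 and 764 after tBHP, and these libraries overlapped. Its log2 change was −0.0019 (95% interval −0.20 to 0.19, adjusted p = 0.990). In cNSF-HA cells it was 0.15 (95% interval −0.046 to 0.34, adjusted p = 0.192). In fNSF-HA cells GLRX had 753, 766 and 762 normalised reads without tBHP and 911, 899.9 and 774 after it, without overlap, and the log2 change of 0.18 did not pass (adjusted p = 0.135). The change in fNSF-HA cells passed with edgeR (0.24, adjusted p = 0.0302), without fNSF-HA replicate 3 after tBHP (0.25, adjusted p = 0.0406) and with the GC and length trend removed (0.20, adjusted p = 0.0201), and that in cNSF-HA cells passed with the trend removed (0.24, adjusted p = 0.00685).

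Both glutathione transferases were higher after tBHP. GSTP1 (chr11:67583595-67586656), the abundant pi class enzyme, had 5819.6 to 6243 normalised reads in the 9 libraries without tBHP. After tBHP it had 9878, 8338 and 8284 normalised reads with PBS, 9127, 9502 and 12188 with cNSF-HA and 8364, 5667 and 9722 with fNSF-HA. Replicate 2 of the fNSF-HA cells lay below every library without tBHP, and the other 8 lay above all of them. The log2 change was 0.56 in PBS cells (standard error 0.14, adjusted p = 0.00303), 0.77 with cNSF-HA (adjusted p = 0.00021) and 0.36 with fNSF-HA (adjusted p = 0.0473). The call in fNSF-HA cells was lost without any 1 of the 3 fNSF-HA libraries without tBHP or without replicate 1 or 3 after it (adjusted p from 0.0929 to 0.243), with no filter on low values (0.0944), with quantile normalization (0.0629) and with only the compared groups in the fit (0.172), and it held without replicate 2. Its log2 change was 0.58 without replicate 2 and 0.19 without replicate 3. GSTP1 has the highest transcript GC content of the 10 genes, 62.5%, and with the GC and length trend removed its 3 changes were 0.22, 0.34 and 0.28, all past the threshold.

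GSTM3 (chr1:109733932-109741038), a mu class transferase, had 316, 301 and 333 normalised reads in PBS cells and 435, 427 and 491 after tBHP. In cNSF-HA cells it went from 319, 296 and 316 to 474, 514 and 529.6, and in fNSF-HA cells from 358, 329 and 367 to 491, 437 and 479.5. The libraries with and without tBHP did not overlap in any pre-incubation. GSTM3 rose by 0.51 on the log2 scale in PBS cells (standard error 0.085, adjusted p = 9.01e-05), by 0.70 with cNSF-HA (adjusted p = 3.06e-06) and by 0.42 with fNSF-HA (adjusted p = 0.000747). The mu class genes are close in sequence and an antisense gene overlaps GSTM3, so its reads may be shared with those of other genes, which makes these values uncertain.

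Of the 2 efflux pumps, ABCC1 was higher after tBHP in all 3 pre-incubations and ABCC4 was lower in PBS and cNSF-HA cells. ABCC1 (MRP1, chr16:15949577-16143074), which exports glutathione conjugates, had 1445 to 1589 normalised reads in the 9 libraries without tBHP. After tBHP it had 2801, 2396 and 2379.8 normalised reads with PBS, 2534, 2342 and 1522 with cNSF-HA and 2226, 2004 and 2272 with fNSF-HA. Of the 9 libraries after tBHP, 8 lay above all those without it, and cNSF-HA replicate 3 lay within their range. ABCC1 rose by 0.71 on the log2 scale in PBS cells (standard error 0.13, adjusted p = 0.000178), by 0.40 with cNSF-HA (adjusted p = 0.0153) and by 0.54 with fNSF-HA (adjusted p = 0.00244). The call in cNSF-HA cells was lost without replicate 1 or 2 after tBHP (adjusted p = 0.104 and 0.0773) and with only the compared groups in the fit (0.0560), and the log2 change was 0.26 without replicate 1 and 0.63 without replicate 3.

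ABCC4 (MRP4, chr13:95019829-95301475), which exports cyclic nucleotides and other organic anions, had 1199, 1200.0 and 1196 normalised reads in PBS cells and 809, 1032 and 903 after tBHP. In cNSF-HA cells it went from 1108, 1225 and 1166 to 932, 898 and 639, and in fNSF-HA cells from 1192, 1250.5 and 1269 to 966, 1312 and 747. Of the 9 libraries after tBHP, 8 lay below all those without it, and fNSF-HA replicate 2 lay above them. ABCC4 fell by 0.40 on the log2 scale in PBS cells (standard error 0.16, adjusted p = 0.0434) and by 0.52 in cNSF-HA cells (adjusted p = 0.0104), and in fNSF-HA cells its change of −0.33 did not pass (adjusted p = 0.1001). The call in PBS cells was lost without any 1 of the PBS libraries except replicate 2 after tBHP (adjusted p from 0.087 to 0.162), with edgeR (0.0789), with quantile normalization (0.0506) and with no filter on low values (0.0747). The call in cNSF-HA cells was lost without replicate 3 after tBHP (log2 change −0.35, adjusted p = 0.0777), and that in fNSF-HA cells was gained without replicate 2 after tBHP (−0.54, adjusted p = 0.00185), while without replicate 3 the change was −0.14 (adjusted p = 0.466). With the GC and length trend removed the 3 changes were −0.22, −0.28 and −0.22 and all passed.

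**Figure D2:**
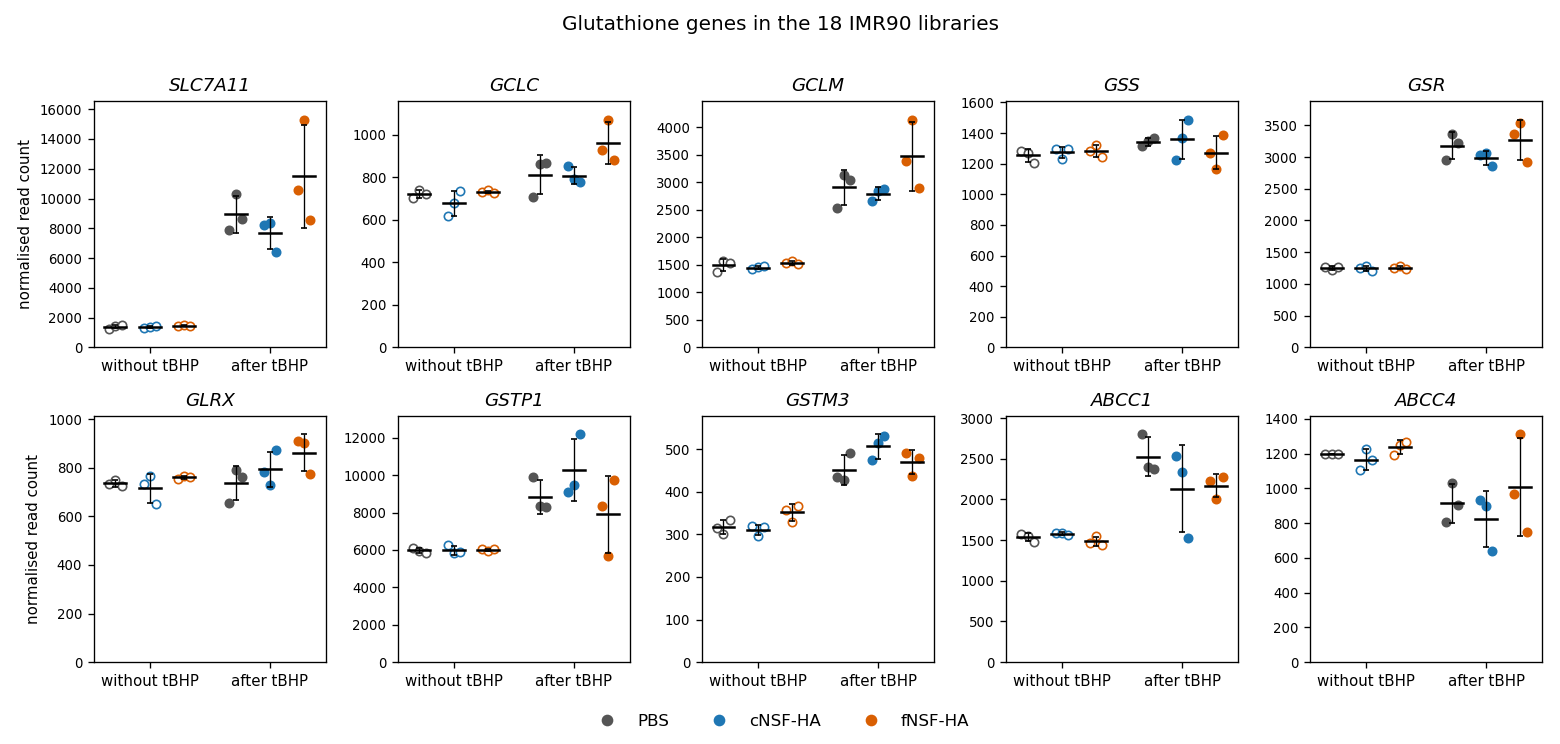
Normalised read counts (vertical axes, from 0) of the 10 genes in each of the 18 libraries, without tBHP (open points) and after it (filled points), in PBS (grey), cNSF-HA (blue) and fNSF-HA (orange) cells, in order of replicate number. Horizontal bars are means and error bars SD of 3 libraries. The fNSF-HA replicate 2 after tBHP is the highest library of SLC7A11, GCLM, GCLC, GSR and ABCC4 and the lowest after tBHP of GSTP1 and GSS.

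Of 42 other genes of glutathione metabolism, 41 were tested, and in PBS cells 13 were higher after tBHP, 12 were lower and 16 did not pass, with a median log2 change of 0.11. The shares over all genes were 24.2% higher and 26.9% lower, near those of these 41 genes. In cNSF-HA cells 17 of the 41 were higher and 10 lower, and in fNSF-HA cells 14 and 10, beside 24% and 19.2% of all genes higher and 26.8% and 22.7% lower. In PBS cells 3 of 4 genes of cysteine supply were higher: SLC3A2, the heavy chain that partners SLC7A11, by 1.90, CTH, the last enzyme of transsulphuration, by 2.38, and CBS, the first, by 1.78, while SLC1A1, a glutamate and cysteine transporter, was lower (log2 change −0.80). The normalised reads of SLC3A2 were 4137 to 4193 in PBS cells and 14240 to 17230 after tBHP. Divided by those of SLC3A2 in the same library, the normalised reads of SLC7A11 were 0.302 to 0.362 without tBHP and 0.342 to 1.37 after it, with the lowest value in cNSF-HA replicate 3 and the highest in fNSF-HA replicate 2.

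Among 10 genes of glutathione breakdown and salvage 3 were higher and 4 lower in PBS cells, to which the values below also refer unless another group is named. All genes tested were higher in 24.2% and lower in 26.9%, and these lists are short, so their counts say little about their genes. CHAC1, an enzyme that degrades cytosolic glutathione and a known ATF4 target, rose by 2.31 on the log2 scale (602.7 to 654.1 normalised reads in PBS cells, 2670 to 3871 after tBHP), and CHAC2, its constitutive relative, changed by −1.12 and GGCT, which acts on gamma-glutamyl amino acids, by −0.89. Of the 3 other glutaredoxins, GLRX5 (−0.56) and GLRX2 (−0.48), both mitochondrial, were lower and GLRX3 did not pass. Of 12 other glutathione transferases 4 were higher after PBS, 8 after cNSF-HA and 6 after fNSF-HA, with 1 lower in each. Over all genes tested, 24.2%, 24% and 19.2% were higher and 26.9%, 26.8% and 22.7% lower. Among the transferases called in PBS cells, the largest changes were those of GSTM4 (0.59), GSTA4 (−0.58) and GSTO1 (0.31). Of the 5 other ABCC genes tested, ABCC2 (1.28) and ABCC3 (0.86), which also export conjugates, were higher, and ABCC9 (−0.47), a subunit of potassium channels, was lower. SLC25A40, a relative of the mitochondrial glutathione importer SLC25A39, was lower (−0.91), and SLC25A39 did not pass. Of 5 genes of glutathione-dependent detoxification, ESD (−0.69) and GLO1 (−0.58) were lower and HAGH (0.36) was higher.

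The textbook targets of NRF2 and of ATF4 outside glutathione metabolism were higher in PBS cells in 19 of 19 and in 16 of 16 tested, with a median log2 change of 1.29 and 1.68, beside 24.2% of all genes called higher. In cNSF-HA cells 18 of 19 and 15 of 16 were higher, and in fNSF-HA cells 19 of 19 and 15 of 16, beside 24% and 19.2% of all genes. In PBS cells AKR1B10 (3.54), AKR1C1 (3.39) and OSGIN1 (3.20) changed most among the NRF2 targets and TRIB3 (3.74), SESN2 (3.06) and DDIT3 (2.92) among the ATF4 targets. HMOX1, haem oxygenase, changed by 2.96. Of 7 regulators 6 were higher, among them NFE2L2, which encodes NRF2 (0.66), KEAP1, its inhibitor (0.78), ATF4 (1.40) and MAFG (1.46), and BACH1, a repressor of NRF2 targets, did not pass (−0.12, adjusted p = 0.475). In PBS cells the change of SLC7A11 lay within the range of these targets. That of GCLC (0.17, standard error 0.092) lay below all of them, the lowest being 0.20 (standard error 0.068). In cNSF-HA and fNSF-HA cells GCLC (0.26 and 0.39) lay above the lowest target (0.10 and 0.098). These lists were written with earlier results of these data known, and the counts are descriptions.

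**Figure D3:**
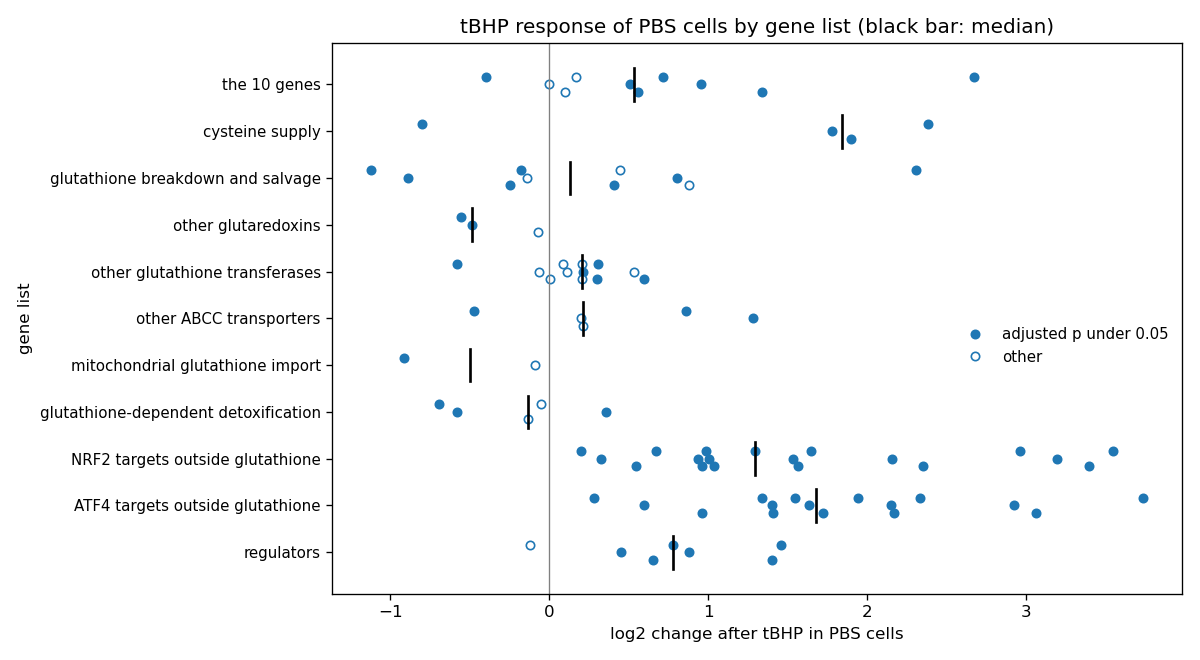
Log2 change after tBHP in PBS cells (horizontal axis) of each gene tested, by gene list (vertical axis). Each point is 1 gene, filled where the adjusted p-value from limma was under 0.05, and black bars are medians. Median changes run from −0.50 for mitochondrial glutathione import to 1.84 for cysteine supply, and the 10 genes have a median of 0.53.

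Over the 18 libraries, the genes whose log2 levels were most like those of SLC7A11 were UGDH (Pearson r = 0.997), UBE2H (0.996) and TXNRD1 (0.996), of 10303 genes with a mean of at least 100. For GCLM they were MT-ND2, NFE2L2 and TP53INP1 (0.993 each). For GCLC they were ARID4A (0.954), RNF6 (0.938) and BNIP3L (0.937). These values are descriptions, because the 18 libraries share the difference between the 9 with tBHP and the 9 without. Among the 9 without tBHP they were 0.231 to 0.363 for the genes like SLC7A11, 0.336 to 0.560 for those like GCLM and 0.793 to 0.909 for those like GCLC. Among the 9 after tBHP, which share the spread along GC content, they were 0.904 to 0.938, 0.940 to 0.971 and 0.857 to 0.937.

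The second comparison asked whether HA changed the glutathione genes in the absence of tBHP. Between cNSF-HA and PBS cells, between fNSF-HA and PBS cells and between cNSF-HA and fNSF-HA cells, 0 of the 10 genes passed with limma, edgeR or DESeq2, 0 had an unadjusted p-value under 0.05 with limma, and 0% of all genes tested passed with limma, in the fit of all 18 libraries, which pools the spread of the libraries after tBHP (median SD 0.206) with that of those without (0.0761). Of all genes, 126, 109 and 206 had an unadjusted p-value under 0.05 with limma in these 3 comparisons, edgeR called 0 and DESeq2 3, all lower in fNSF-HA than in PBS cells. The log2 differences lay between −0.09 (GCLC) and 0.039 (ABCC1) for cNSF-HA against PBS, and between −0.049 (ABCC1) and 0.15 (GSTM3) for fNSF-HA against PBS. For cNSF-HA against fNSF-HA they lay between −0.18 (GSTM3) and 0.089 (ABCC1). SLC7A11 differed by −0.11 between cNSF-HA and fNSF-HA cells, with a 95% interval of −0.43 to 0.21, GCLM by −0.084 (−0.30 to 0.13) and GSR by −0.0099 (−0.16 to 0.14). With only the 6 compared libraries in the fit, the interval was −0.19 to −0.025 for SLC7A11, −0.16 to −0.0067 for GCLM and −0.093 to 0.073 for GSR. In that fit 0 of the 10 genes passed in the 3 comparisons, beside 0% of all genes for cNSF-HA against PBS, 0.153% for fNSF-HA against PBS and 7.16% for cNSF-HA against fNSF-HA (244 higher and 736 lower). Between cNSF-HA and fNSF-HA cells 5 of the 10 had an unadjusted p-value under 0.05 in it, SLC7A11, GCLM, GCLC, GSTM3 and ABCC1, with adjusted p-values from 0.108 to 0.239, beside 2836 of all 13686 genes. The 3 libraries of the groups did not overlap for 0 of the 10 genes between cNSF-HA and PBS cells, beside 15.2% of all genes, for 1 gene between fNSF-HA and PBS cells (GLRX, higher in fNSF-HA), beside 14%, and for 4 genes between cNSF-HA and fNSF-HA cells, beside 25%. Of these 4, SLC7A11, GCLM and GSTM3 were lower and ABCC1 was higher in cNSF-HA cells.

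The third comparison, that of the 2 HA chain lengths under stress, set cNSF-HA against fNSF-HA after tBHP. With limma and edgeR 0 of the 10 genes passed, and with limma 0% of all genes tested did, while 4 of the 10 had an unadjusted p-value under 0.05 beside 4412 of all 13686 genes. The limma fit of all 18 libraries pools the smaller spread without tBHP (median SD 0.0761) with that after it (0.206). Its intervals after tBHP may therefore be too narrow and its p-values too small. With only the compared groups in the fit, limma called 0 of all genes, and 1001 had an unadjusted p-value under 0.05. The limma values below are from the fit of all 18 libraries. SLC7A11 differed by −0.55 (cNSF-HA minus fNSF-HA, log2 scale, standard error 0.15, 95% interval −0.87 to −0.23, adjusted p = 0.0981), GCLM by −0.30 (−0.52 to −0.083, adjusted p = 0.0981), GCLC by −0.24 (−0.44 to −0.050, adjusted p = 0.103) and GSTP1 by 0.40 (0.10 to 0.69, adjusted p = 0.0981). The 3 cNSF-HA libraries lay below the 3 fNSF-HA libraries for SLC7A11, GCLM and GCLC, and 13.4% of all genes had no overlap. Of all genes edgeR called 0 and DESeq2 6.74%. DESeq2 called 2 of the 10, SLC7A11 (−0.58, adjusted p = 0.0302) and GCLM (−0.31, adjusted p = 0.0497). The other 6 genes differed by −0.27 (ABCC4) to 0.11 (GSTM3), with intervals that held 0.

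When fNSF-HA replicate 3 after tBHP was left out, limma called 6 of the 10 genes between cNSF-HA and fNSF-HA cells: SLC7A11 (−0.74), ABCC4 (−0.47), GCLM (−0.42), GCLC (−0.30), GSR (−0.21) and GSTP1 (0.57), beside 40.8% of all genes. Without fNSF-HA replicate 2 it called 0, and the difference of SLC7A11 was −0.32, that of GCLM −0.17 and that of GSTP1 0.18. The genes also lay in the order of their transcript GC content in part: SLC7A11 (35.4%) and GCLM (37.3%) had the lowest content and differences below 0, and GSTP1 (62.5%) had the highest and a difference above 0. With the GC and length trend of each library removed, the differences were −0.17 for SLC7A11, −0.017 for GCLM, −0.12 for GCLC and −0.028 for GSTP1, and none passed (smallest adjusted p = 0.113). Because the removal also takes out any group difference that follows GC content or length, it cannot show where these differences came from. With both cNSF-HA replicate 3 and fNSF-HA replicate 2 left out, that of SLC7A11 was −0.20 and that of GSTP1 0.046.

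**Figure D4:**
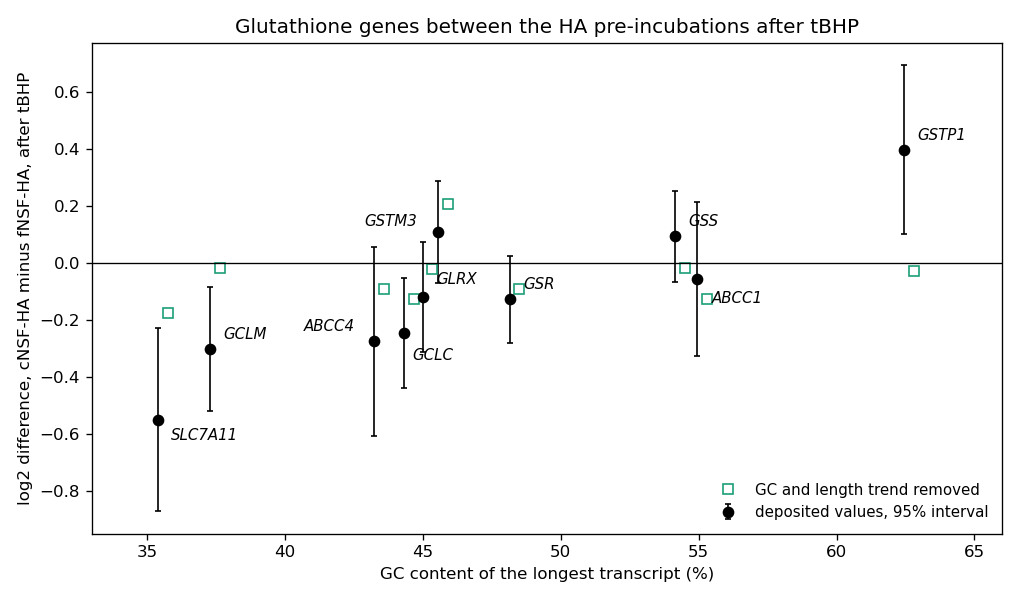
Log2 difference after tBHP, cNSF-HA minus fNSF-HA (vertical axis), of the 10 genes against the GC content of their longest transcript in percent (horizontal axis). Black points are limma estimates from 3 libraries a group with 95% intervals, which pool the smaller spread of the libraries without tBHP. Green squares, set slightly to the right, are the estimates with the GC and length trend of each library removed. SLC7A11 moves from −0.55 to −0.17 and GSTP1 from 0.40 to −0.028.

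Against PBS cells after tBHP, the 2 HA preparations shared the PBS libraries. The limma fit of all 18 libraries again pooled the smaller spread without tBHP, so the unadjusted p-values below may be too small. For cNSF-HA, limma, edgeR and DESeq2 called 0 of the 10 genes and limma 0% of all genes, and only ABCC1 had an unadjusted p-value under 0.05 (log2 difference −0.27, adjusted p = 0.575), which was −0.048 without cNSF-HA replicate 3. Of all genes, 1183 had an unadjusted p-value under 0.05 with limma, edgeR called 0 and DESeq2 4 higher and 1 lower. The cNSF-HA and PBS libraries overlapped for all 10 genes, and 9.57% of all genes had no overlap. For fNSF-HA, limma called 0 of the 10 genes beside 0.139% of all genes, edgeR and DESeq2 also called 0 of the 10, and 4 had an unadjusted p-value under 0.05: SLC7A11 (0.33), GCLM (0.25), GCLC (0.24) and GLRX (0.23), with adjusted p-values from 0.159 to 0.212. Of all genes, 3102 of 13686 had an unadjusted p-value under 0.05 with limma, edgeR called 30 higher and 6 lower, and DESeq2 331 higher and 111 lower. Without PBS replicate 1, these 4 differences were 0.25, 0.15, 0.15 and 0.15. GCLC was higher and ABCC1 lower in all 3 fNSF-HA libraries than in all 3 PBS libraries, beside 12% of all genes without overlap. Without fNSF-HA replicate 3, limma called 5 of the 10 genes, those 4 and GSTP1 (−0.35), beside 29.4% of all genes, and without fNSF-HA replicate 2 the difference of SLC7A11 was 0.10 and that of GSTP1 0.035.

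The last comparison tested whether the response to tBHP itself differed between the pre-incubations, as an interaction in the same fit. For the 3 pairs of pre-incubations 0 of the 10 genes passed with limma, edgeR or DESeq2 and 0% of all genes passed with limma, and the smallest adjusted p-values were 0.999 for cNSF-HA against PBS cells, 0.669 for fNSF-HA against PBS cells and 0.710 for cNSF-HA against fNSF-HA cells. Of all genes, 555, 942 and 533 had an unadjusted p-value under 0.05 with limma, edgeR called 0, and DESeq2 called 5 with a higher and 1 with a lower response in fNSF-HA than in PBS cells. Only 1 unadjusted p-value of the 10 genes was under 0.05, that of GSTM3 between cNSF-HA and fNSF-HA cells (difference of responses 0.29, 95% interval 0.033 to 0.54). The response of SLC7A11 differed by −0.44 between cNSF-HA and fNSF-HA cells, with a 95% interval of −0.90 to 0.013, that of GSTP1 by 0.41 (−0.0097 to 0.83) and that of GCLM by −0.22 (−0.52 to 0.091). The calls of GCLC and ABCC4 that passed in some pre-incubations and not in others are therefore not shown to differ between them.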

How the data were processed

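Polyadenylated RNA of 18 IMR90 libraries was prepared by the authors with the TruSeq RNA V2 kit and sequenced as single-end reads of 100 nt. The submitters' processing notes name Trimmomatic 0.32, STAR 2.5.2b, featureCounts, Subread 1.5.0-p3, DESeq2 and GRCh38.p7, with no roles given. The deposited signal of a gene is its read count divided by the DESeq2 size factor of the library: divided by what 1 read is worth, 100% of them were whole (tolerance 0.01 reads), so reads were recovered. The deposited table also holds a p-value, a q-value and a rank score per gene from a comparison of the authors, which were not used. Groups came from the labels, and no 2 replicate libraries held identical values.

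Values were tested as log2(deposited value + 1), on which scale the changes of low genes are understated. For the 13686 genes with a mean of at least 10, limma 3.58.1 (mean-variance trend, 1 coefficient per group, all 18 libraries, two-sided, Benjamini-Hochberg adjustment, threshold 0.05) gave the 9 comparisons and 3 response differences. The recovered reads were also tested with edgeR 4.0.16 (quasi-likelihood) and DESeq2 1.42.0, and the test was checked on simulated data. Alternatives were other pseudocounts, filters and scalings, a replicate block, a fit of the compared groups alone and each library left out. Removal of the GC and length trend (GENCODE release 29, 12528 genes tested) and leaving out cNSF-HA replicate 3 and fNSF-HA replicate 2 after tBHP together were chosen after seeing the data. All 10 genes are named in the responses to tBHP, and only some of them in the other comparisons. Of each other list at most the 3 called genes with the largest change in PBS cells are named. NFE2L2, KEAP1, BACH1, ATF4, HMOX1, SLC3A2 and CHAC1 are named whatever their values, and SLC1A1, GLRX3 and SLC25A39 as the rest of their lists. For likeness, the 3 genes with the highest Pearson r were named. The 10 genes and the lists were chosen with earlier results of these data known.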

Additional observations from a re-analysis of the deposited data

How the results depend on the processing

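The count of the 10 genes called in each comparison stayed within 1.5 times its value under every alternative run, except in 2 comparisons after tBHP: DESeq2 called 2 genes between cNSF-HA and fNSF-HA cells, and with each library left out in turn limma called 0 to 6 genes there and 0 to 5 between fNSF-HA and PBS cells, the highest counts without fNSF-HA replicate 3. Replicates with the same number did not deviate together in all pairs (correlations −0.119 to 0.333), so the numbers were not taken as pairs, and with the number as a replicate block limma called 7, 8 and 7 genes in the tBHP responses of PBS, cNSF-HA and fNSF-HA cells and 0 in the other comparisons. Each PBS library without tBHP deviated most like the PBS library of the same number after it. Without tBHP, each cNSF-HA library deviated most like the fNSF-HA library of its number. In the other pairs of groups this did not hold for every library. For fNSF-HA against PBS cells after tBHP, limma with the block called 51 of all genes higher and 10 lower, beside 16 and 3 without it. The directions that turned were those of log2 values near 0 or of differences between pre-incubations, and none of them had passed in limma's test of all 18 libraries. With the GC and length trend removed, GSS turned to −0.0804 and −0.0943 in the tBHP responses of PBS and cNSF-HA cells and GLRX to 0.0918 in that of PBS cells. After tBHP the same alternative turned GCLC (0.0269), GCLM (0.00268) and GSS (−0.00828) between cNSF-HA and PBS cells, GSS (0.00832), GSTP1 (0.109) and GSTM3 (−0.00232) between fNSF-HA and PBS cells, and GSS (−0.0166) and GSTP1 (−0.0277) between cNSF-HA and fNSF-HA cells. With cNSF-HA replicate 3 and fNSF-HA replicate 2 after tBHP both left out, GSS was 0.0454 in the response of fNSF-HA cells, GCLC (0.0230), GSS (−0.0518) and ABCC4 (0.00724) turned between cNSF-HA and PBS cells, GSR (−0.0175), GSTP1 (0.0346) and ABCC4 (−0.0996) between fNSF-HA and PBS cells, and GSS (−0.0323), ABCC1 (0.115) and ABCC4 (0.107) between cNSF-HA and fNSF-HA cells. Quantile normalization gave 0.0470 for GLRX in the response of PBS cells, 0.0194 for GSS in that of fNSF-HA cells and 0.00582 for GCLC between cNSF-HA and PBS cells, edgeR gave 0.0665, 0.0482 and 0.0033 for the same 3 and 0.00149 for ABCC1 between cNSF-HA and fNSF-HA cells, and DESeq2 gave 0.00386 for GLRX in PBS cells. With single libraries left out, the response ranged from −0.0549 to 0.0794 for GLRX in PBS cells and from −0.0793 to 0.0454 for GSS in fNSF-HA cells. Between cNSF-HA and PBS cells after tBHP it was −0.0985 to 0.0497 for GCLC, −0.147 to 0.00707 for GCLM, −0.0518 to 0.0854 for GSS and −0.264 to 0.00724 for ABCC4. Between fNSF-HA and PBS cells it was −0.0175 to 0.121 for GSR, −0.355 to 0.0346 for GSTP1 and −0.0996 to 0.306 for ABCC4, and between cNSF-HA and fNSF-HA cells −0.197 to 0.171 for ABCC1. The cause of these turns was not tested. Without tBHP, limma called 0 of all genes for cNSF-HA against fNSF-HA with all 18 libraries in the fit and 980 with only the compared groups, and for fNSF-HA against PBS 0 and 21. After tBHP, the fit of only the compared groups called 0 genes for cNSF-HA against fNSF-HA, with 1001 at an unadjusted p-value under 0.05. Replicates had a median SD (log2) of 0.206 with tBHP and 0.0761 without, and the share of read number in this spread was not tested.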
